A study of Mus musculus with 6 samples.

Results

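Ephrin-A ligands and EPHA receptors were compared between endothelial cells of blood vessels (VECs) and of lymphatic vessels (LECs) sorted from the mouse small intestine. The members were the 5 ligand genes Efna1 to Efna5 and the receptor genes Epha2, Epha3, Epha4, Epha5 and Epha7, 10 of the 22911 genes that the arrays could name. They were found through the RefSeq accession of each probe, which gave 19 probes. Transcripts were measured on one-color Agilent arrays, with 3 VEC samples (numbered 2, 3 and 4) and 3 LEC samples (numbered 6, 7 and 8). All were from small intestine of female mice, with up to 10000 sorted cells per sample, and neither group carried a treatment or an altered gene according to the labels. By the study's methods, both populations were CD45- and CD31+, and CD90, the product of Thy1, was absent from VECs and present on LECs, so that each group is defined by surface antigens and not by position in the vessel tree. The age and strain of the mice of the arrays, and whether each sample was taken from its own mouse, are not stated in the labels, so the p-values measure the spread between these samples, which may be technical. The description of the 3 LEC samples names VECs, and the grouping follows their titles. The titles fit the markers: 8 of 8 lymphatic markers, among them Prox1, Lyve1 and Pdpn, were higher in LECs, and 8 of 8 blood vascular markers, among them Flt1, Nrp1 and Plvap, were lower. The lymphatic list includes Thy1, whose product was used for the sort.

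Eph receptors are receptor tyrosine kinases, and their ephrin ligands stay attached to the surface of the cell that makes them, so that signaling needs contact between cells. Ephrin-A ligands are held by a lipid (GPI) anchor and mostly bind EPHA receptors, while ephrin-B ligands span the membrane and mostly bind EPHB receptors. EPHA4 is an exception that binds ligands of both classes. The receptor-bearing cell responds by forward signaling and the ligand-bearing cell by reverse signaling, which often steers cells apart. In blood vessels, ephrin-A1 and its receptor EPHA2 are known for a role in angiogenesis, and ephrin-B2 and EPHB4 for the separation of arteries and veins.

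Signals are given as the intensity of the spot after the scanner software's background subtraction. Differences are given on the log2 scale as LEC minus VEC, with each array scaled to its own 75th percentile. A probe was called well above background by the scanner software, and it was tested if this held on all 3 arrays of at least 1 group. On the 6 arrays the dimmest spots that met this had 12.1 to 25.1 intensity units, the 75th percentile was 333 to 375 in VECs and 381 to 441 in LECs, and no spot was saturated. Of the 10 genes, 8 had a tested probe and 2, Epha3 and Epha5, did not. Of the tested genes, 5 were lower in LECs (Efna1, Efna3, Efna4, Epha2 and Epha4), 2 were higher (Efna5 and Epha7), and Efna2 did not pass (limma, adjusted p under 0.05 over 33776 probes). These 7 called genes are 87.5% of those tested, while 66.9% of all 14971 tested genes (64.0% of the probes) were called, 34.9% of the genes higher and 32.0% lower in LECs, so a call in itself sets the members little apart. The median difference was -0.56 over the 8 genes and 0.02 over all tested genes, and the median size of the difference, without its sign, was 0.78 against 0.46. This balance of directions moved with the scaling. When arrays were left unscaled, the median difference over all probes moved from -0.03 to 0.20 and 65.1% of the called probes were higher in LECs, against 48.8% after scaling. In sorted populations such as these, fewer cells of a type and less RNA per cell cannot be told apart.

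**Figure D1:**
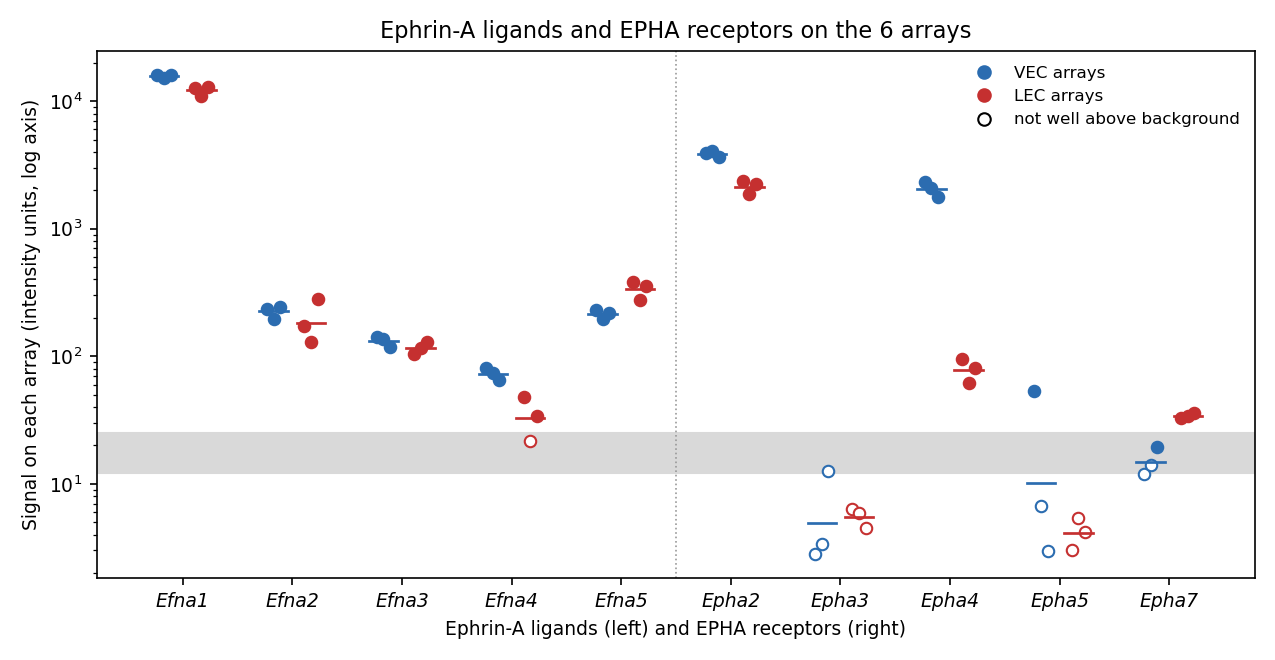
Signal of the brightest probe of each ephrin-A ligand and EPHA receptor gene before scaling, on a log axis, with VECs in blue and LECs in red, 3 arrays each. Points are open where the spot failed the test against background, lines give the geometric mean of a group, and the gray band runs from 12.1 to 25.1, the range of the dimmest spots above background. Epha4 shows the widest gap of the 10 genes, and Epha3 has no filled point.

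Of the receptors, Epha4 differed most. Epha4 had signals of 2316, 2101 and 1765 on VEC arrays 2, 3 and 4 and of 95.1, 61.6 and 81.3 on LEC arrays 6, 7 and 8. Every VEC value was thus far above every LEC value, yet all 6 arrays measured the probe above background. After scaling, VECs averaged 2.52 ± 0.25 (SD, n = 3) and LECs -2.42 ± 0.22 (SD, n = 3) on the log2 scale. Epha4 was thus 30.7-fold higher in VECs, with a log2 difference of -4.94 (limma standard error 0.17, adjusted p = 3.64e-06). Among the 14971 tested genes this was the 95th lowest difference. Under normexp correction, which fits the background and adds an offset to every spot, the difference was -4.12. EPHA4 is best known as a receptor of axon guidance in the nervous system. A single probe, A_65_P01608, measured Epha4 on these arrays, so no second probe could be set beside it.

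Epha2, the main receptor of ephrin-A1 on endothelium, had signals of 3946, 4073 and 3628 in VECs and of 2352, 1868 and 2239 in LECs. The groups did not overlap, and the gene was well above background on every array. Its difference was -1.08 (standard error 0.10, limma adjusted p = 2.48e-04), which is 2.12-fold higher in VECs, with a standard deviation of 0.17 in VECs and 0.078 in LECs. Over the 19 alternatives its difference ranged from -1.17 to -0.86. The call held each time, leaving aside the fit with the slide row as a block.

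Epha7, a receptor of ephrin-A5 studied mostly in the developing brain, was the receptor gene that was higher in LECs. Its brightest probe had signals of 11.9, 14.1 and 19.6 in VECs and of 32.8, 33.7 and 36.2 in LECs. All 3 LEC arrays but only VEC array 4 measured it above background, so the fold is a lower bound: Epha7 was at least 1.95-fold higher in LECs, computed against the higher of the probe's own signal and the lowest signal well above background (difference 0.98, standard error 0.17, limma adjusted p = 0.00349). This small signal lies close to the background, and with normexp correction the difference was 0.15 and did not pass (limma adjusted p = 0.148). On the LEC arrays, none of the other 3 probes of Epha7 rose above background. One of them, designed to another transcript, had signals of 2.95, 3.51 and 87.6 in VECs, so that VEC array 4 stood apart from the other two.

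The remaining receptors of the 10 genes, Epha3 and Epha5, were near or below background. Epha3, a receptor of several ephrin-A ligands that is known from the developing heart and from tumor stroma, had 2 probes with signals of 2.82 to 12.7 in VECs and 3.67 to 9.82 in LECs, and neither was well above background on any array. Epha5, a receptor found mainly in brain, had 3 probes. A single one of them was well above background, on VEC array 2, where its signal was 53.4, against 6.71 and 2.96 for VEC 3 and 4 and 3.01, 5.43 and 4.17 for the LECs. No fold is given for these genes, and their signals allow no statement on a difference. Among the EPHA receptors outside the 10 genes, Epha1 was lower in LECs, at least 1.57-fold, and well above background on 1 LEC array (limma adjusted p = 0.0015), while its difference was -0.27 with normexp correction, against -0.87. Epha6 and Epha10 did not pass (differences of -0.12 and -0.42, limma adjusted p = 0.59 and 0.424), and Epha8 was well above background on VEC array 2 alone. The probe that represented Epha6 was well above background on all 6 arrays. Its signals were 120, 113 and 91.1 in VECs and 143, 101 and 108 in LECs. A second probe of Epha10, not tested, was well above background on LEC arrays 7 and 8 alone. Its signals were 2.83, 35.7 and 99.4 in LECs and 2.59, 3.08 and 3.00 in VECs.

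Of the ligands, Efna1 had the most precise difference. Efna1, first described as a gene that tumor necrosis factor induces in endothelium, had signals of 15964, 15322 and 16133 in VECs and of 12777, 11061 and 13004 in LECs. Each LEC value was below each VEC value before and after scaling. The difference was -0.59 (standard error 0.060, limma adjusted p = 3.00e-04), or 1.51-fold higher in VECs, with standard deviations of 0.050 and 0.015. Without scaling between arrays it was -0.37 and still passed.

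Efna4 showed the largest change among the ligands. Its signals were 80.5, 74.6 and 65.2 in VECs and 47.8, 21.8 and 33.9 in LECs, where LEC array 7 was not well above background. The groups did not overlap, but the LEC values spread widely, with a standard deviation of 0.48. Efna4 was at least 2.49-fold higher in VECs (difference -1.38, standard error 0.25, limma adjusted p = 0.00383). The size rests on signals near the background: it was -0.67 with normexp correction, which still passed. EFNA4 is known from craniosynostosis, a disorder of the skull sutures.

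Efna3 had signals of 142, 138 and 119 in VECs and of 105, 116 and 129 in LECs at the probe above background. These intensities overlapped, and the groups were apart only once each array was scaled (difference -0.42, standard error 0.14, limma adjusted p = 0.036, or 1.34-fold higher in VECs). The call was lost when VEC array 2, VEC array 3, LEC array 6 or LEC array 8 was left out, without scaling between arrays (difference -0.19, limma adjusted p = 0.233), with no filter on dim probes, and by the methods' one-way test. Its second probe stayed at background on all 6 arrays. Ephrin-A3 is known as a partner of EPHA4 between astrocytes and neurons.

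Efna2, a ligand known from the mapping of visual projections, had signals of 236, 196 and 244 in VECs and of 172, 128 and 280 in LECs. Before scaling, LEC array 8 was above all VEC arrays and the other two LEC arrays were below them, and after scaling LEC array 8 lay within the VEC range. Efna2 did not pass (difference -0.52, standard error 0.23, limma adjusted p = 0.0976), and without LEC array 8 it did (difference -0.78, limma adjusted p = 0.00306).

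Efna5, whose product guides retinal axons, was the ligand gene that was higher in LECs. Its brighter probe had signals of 230, 197 and 219 in VECs and of 383, 278 and 357 in LECs. The second probe to the same transcript gave 138, 120 and 124 in VECs and 208, 162 and 220 in LECs. Neither probe overlapped between the groups, and their differences were alike, 0.42 (standard error 0.091, limma adjusted p = 0.00798) and 0.39 (standard error 0.093, limma adjusted p = 0.0109), which are 1.34-fold and 1.31-fold. Another probe of the gene, designed to a different transcript, stayed at background on all 6 arrays, with signals from 5.93 to 15.1. Over the 19 alternatives the difference of Efna5 ranged from 0.35 to 0.64. It passed each time, leaving aside the fit with the slide row as a block.

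**Figure D2:**
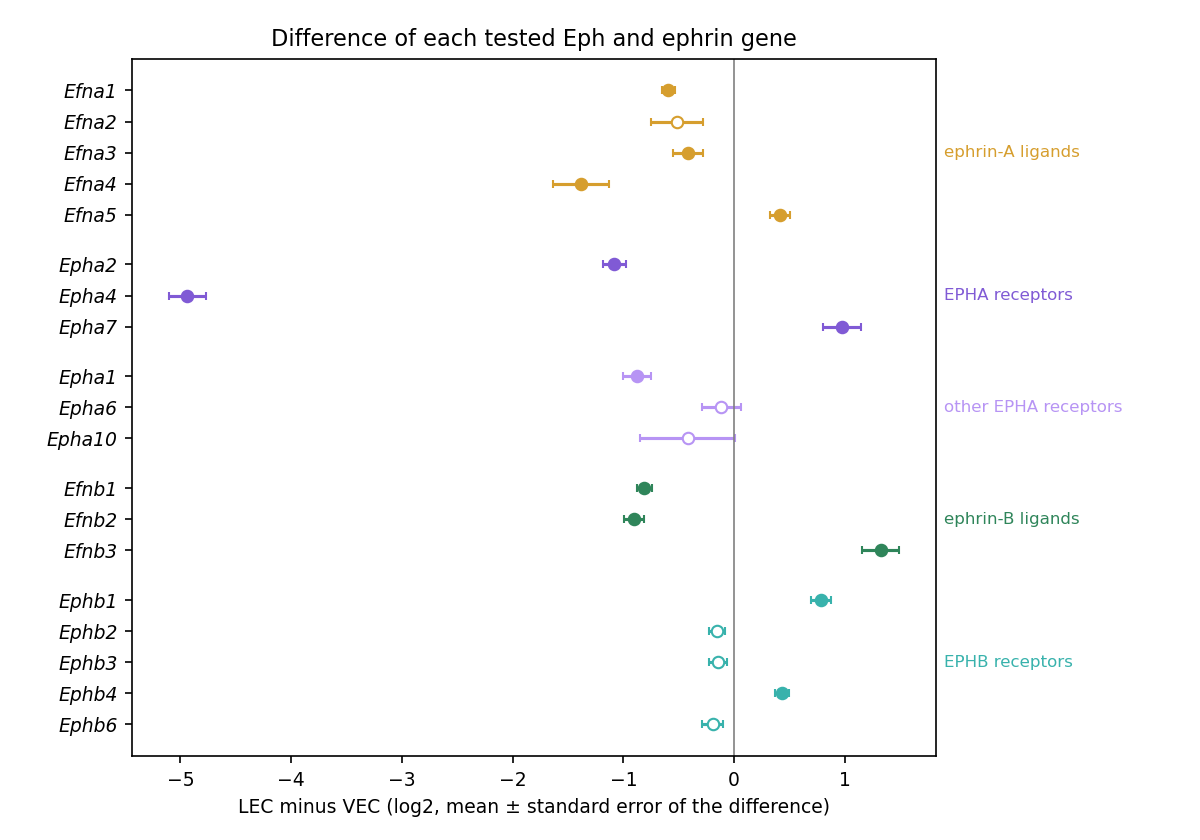
Difference between LECs and VECs (log2, LEC minus VEC) of the tested probe that represents each Eph and ephrin gene, with its standard error. Filled points passed the limma test at an adjusted p under 0.05, open points did not. Epha4 lies at -4.94, and the other genes lie between -1.38 and 1.33.

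The genes Efna1, Efna3 and Efna4 follow each other as protein-coding genes on mouse chromosome 3, on 1 strand in the RefSeq annotation of GRCm38.p6, and all 3 were lower in LECs. The protein-coding genes at both ends of this run were lower as well: Slc50a1, a sugar transporter gene beside Efna1, with -0.82 (limma standard error 0.060, adjusted p = 7.42e-05), and Adam15, a gene of a membrane metalloprotease-disintegrin beside Efna4, with -2.88 (limma standard error 0.077, adjusted p = 1.48e-06). The next genes outward went the other way or did not pass, with 0.23 for Dpm3 (limma adjusted p = 0.041) and -0.31 for Dcst1 (limma adjusted p = 0.123). These 4 neighbors were looked at after the values of the ligand genes were known. The other ligand genes lie elsewhere, Efna2 on chromosome 10 and Efna5 on chromosome 17.

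The promoters of these 3 neighboring ligand genes and of Epha4, the gene with the largest difference, are shown as the 250 bases before the annotated start, 5′ to 3′ on the strand of the gene (RefSeq, GRCm38.p6). Capitals mark GGAAG or its reverse complement CTTCC, a core of the sites of ETS factors, a family that includes many endothelial regulators. The windows are chr3:89280952-89281201 for Efna1, chr3:89322940-89323189 for Efna3, chr3:89338029-89338278 for Efna4 and chr1:77515089-77515338 for Epha4, each on the minus strand.
Efna1: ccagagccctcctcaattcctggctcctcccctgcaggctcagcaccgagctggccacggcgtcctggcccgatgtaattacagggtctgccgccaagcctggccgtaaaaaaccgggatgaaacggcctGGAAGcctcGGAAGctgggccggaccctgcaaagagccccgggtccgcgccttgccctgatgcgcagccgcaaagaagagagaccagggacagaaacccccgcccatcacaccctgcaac
Efna3: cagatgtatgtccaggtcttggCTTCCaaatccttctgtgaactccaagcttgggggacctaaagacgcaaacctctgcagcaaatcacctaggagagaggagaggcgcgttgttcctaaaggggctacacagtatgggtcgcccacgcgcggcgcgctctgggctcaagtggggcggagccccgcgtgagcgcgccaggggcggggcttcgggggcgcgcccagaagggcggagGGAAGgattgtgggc
Efna4: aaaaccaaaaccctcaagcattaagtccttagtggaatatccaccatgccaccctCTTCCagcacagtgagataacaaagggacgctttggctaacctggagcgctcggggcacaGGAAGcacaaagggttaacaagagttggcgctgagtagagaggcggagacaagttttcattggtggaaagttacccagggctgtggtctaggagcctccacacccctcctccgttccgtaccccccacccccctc
Epha4: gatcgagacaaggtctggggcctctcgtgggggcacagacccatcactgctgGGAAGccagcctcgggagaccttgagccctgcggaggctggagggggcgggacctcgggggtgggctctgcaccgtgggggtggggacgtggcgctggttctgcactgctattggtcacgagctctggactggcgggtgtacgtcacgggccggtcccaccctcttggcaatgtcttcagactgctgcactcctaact
Efna1, Efna3 and Efna4 held 2 matches each and Epha4 held 1. All 10 genes matched the promoter table, with 13 windows, of which 9 held the motif, and 64.1% of all 32851 windows held it. The windows without it were those of Efna5, both of Epha7 and 1 of the 2 of Efna3. A match is a description of the letters and not of binding.

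The ephrin-B ligands and EPHB receptors, the family closest to these genes, had a tested probe for 8 of 8 genes, with 3 higher in LECs, 2 lower and 3 without a call. The called share of 62.5% was near the 66.9% of all tested genes. Efnb1 and Efnb2, the latter a ligand of arterial endothelium, were lower in LECs, by differences of -0.81 and -0.91. Efnb3 was 2.51-fold, Ephb1 1.72-fold and Ephb4, a receptor of venous and lymphatic endothelium, 1.35-fold higher in LECs (limma adjusted p of these 5 at most 0.00146). Ephb2, Ephb3 and Ephb6 differed by -0.15, -0.14 and -0.19, signs that turned without scaling between arrays, and did not pass (limma adjusted p = 0.118, 0.174 and 0.124). The median size of the difference was 0.61 over these 8 genes, and no gene among them reached the size of Epha4. With normexp correction Ephb2 and Ephb6 passed as lower in LECs (differences of -0.18 and -0.21). The difference between the families was not tested.

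Genes that act with or below EPHA receptors were taken as 1 list of 34, of which 31 had a tested probe. Higher values in LECs were called for 10 of them, lower values for 11 and neither for 10, so that 67.7% were called against 66.9% of all genes, and the median difference was -0.13 against 0.02. The adaptors were the group with calls in 1 direction alone. Of 7 tested, 5 were lower in LECs: Crk 2.67-fold, Nck2 2.25-fold, Inppl1, the phosphatase SHIP2 that binds EPHA2, 2.15-fold, and Nck1 and Cbl by differences of -0.46 and -0.32. Without scaling between arrays Crk, Nck2 and Inppl1 kept their calls, while Nck1 and Cbl lost theirs. The other tested probe of Nck1 was also lower, by -0.60 (limma adjusted p = 0.00161). That of Cbl differed by 0.30 and did not pass (limma adjusted p = 0.683). Grb2 and Anks1 did not pass (differences of -0.13 and -0.17). Before scaling, the mean signals of Grb2 and Anks1 were higher in LECs than in VECs.

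Among the regulators of small GTPases, the exchange factor Vav3 was 4.64-fold higher in LECs. Sipa1l1 was also higher in LECs, with signals of 288, 253 and 298 in VECs and 706, 570 and 698 in LECs, and so was Vav2, with a difference of 0.37. The exchange factors Tiam1 (5.65-fold) and Arhgef15 (1.86-fold) were lower (limma adjusted p of these 5 at most 0.00627). With normexp correction the difference of Tiam1 was -1.29, against -2.50, and Vav2 lost its call (difference 0.16), as it did with an intensity trend in the variances. Vav2 and Vav3 are exchange factors that EPHA receptors recruit, and Arhgef15 encodes the endothelial ephexin. The probe that represented Chn1, the gene of a chimaerin that acts below EPHA4, did not pass (difference 0.08), whereas its other 2 tested probes were at least 5.56-fold and at least 2.47-fold higher in LECs. The GTPase genes Rhoa and Rac1 did not pass (differences of -0.13 and -0.04). Cdc42 was lower (difference -0.41), a call lost without scaling (difference -0.18). With the slide row in the fit its difference was -0.29. Rock2 was higher (difference 0.29), a call lost in 7 of 19 alternatives, among them each of 4 that left out 1 array (VEC 2, VEC 3, LEC 7 or LEC 8). Rock1 did not pass by the probe that represented it (difference 0.10), while its other probes were lower, at -0.38 and -0.20.

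Of the kinases of the SRC family, Src was at least 2.50-fold and Yes1 1.56-fold higher in LECs, while VECs exceeded LECs 1.67-fold for Fyn (limma adjusted p of these 3 at most 0.00557). On all 3 VEC arrays, Src failed the test against background, and so did its second probe on all 6 arrays. With normexp correction the difference of Src was 0.31, against 2.11 in the main processing. Abl1 had probes in opposite directions, 0.24 for the one that represented it, a call lost in 8 of 19 alternatives, and -1.08 for the other. The phosphatase gene Acp1 was 1.78-fold higher in LECs, Ptpn1 differed by -0.18 and passed narrowly (limma adjusted p = 0.0325) but turned to 0.0449 without scaling between arrays and lost its call in 9 others of the 19 alternatives, and Ptpn11 did not pass. Adam10, the protease that sheds ephrins, had a 1.66-fold higher level in LECs than in VECs (limma adjusted p = 3.47e-04). Of the partners of GPI-anchored ephrin-A in reverse signaling, Ngfr was 6.24-fold higher in LECs, with signals of 35.3, 25.7 and 27.5 in VECs and 220, 245 and 179 in LECs. Ret was at least 4.04-fold higher in VECs, and Ntrk2 did not pass (difference -0.21). With normexp correction both differences were smaller and still passed, at 1.54 for Ngfr, against 2.64, and -0.97 for Ret, against -2.05.

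**Figure D3:**
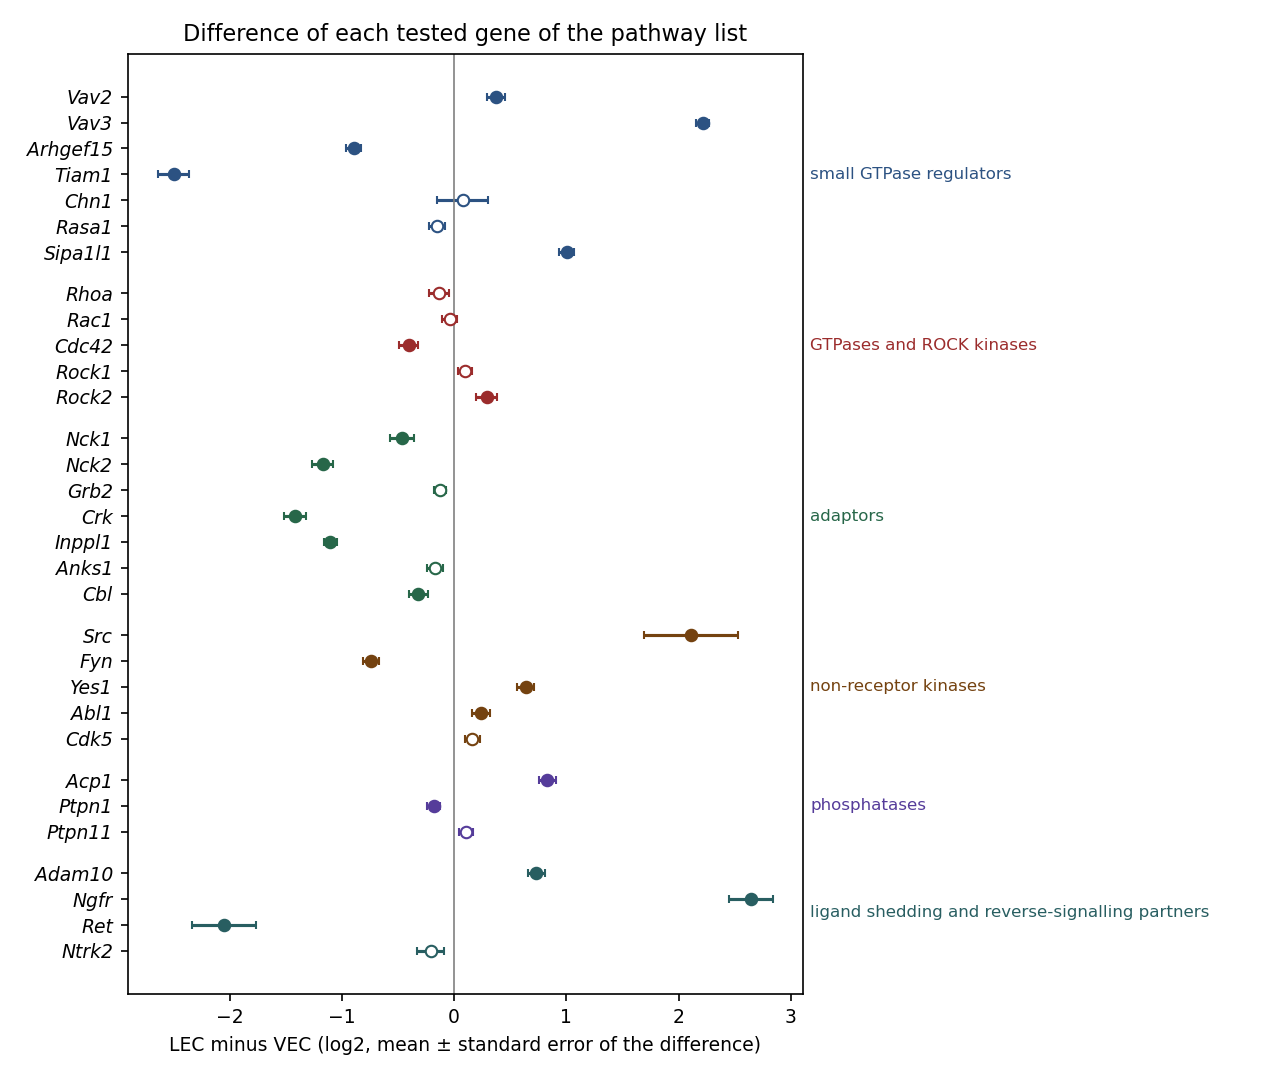
Difference between LECs and VECs (log2, LEC minus VEC) of each tested gene of the pathway list, grouped by role, with its standard error. Filled points passed the limma test at an adjusted p under 0.05, open points did not. Adaptor genes lie at or below -0.13 after scaling, and each other group holds points on both sides of 0.

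Markers of other cells also differed between the groups. Alongside the 2 genes higher in LECs and alongside Ngfr, 5 of 9 tested markers of enteric neurons and glia were higher in LECs and 2 were lower. The neuronal genes Elavl4 and Tubb3 did not pass (differences of -0.14 and -0.21). The glial genes S100b (15.5-fold), Sox10 (4.25-fold) and Gfap were among those higher in LECs, and the neuronal genes Uchl1 and Snap25 were lower. These 5 were named after their values were seen. The summed level of that list, in multiples of the 75th percentile of the array, was 67.0 to 69.8 in VECs and 49.2 to 51.4 in LECs. Snap25 and Uchl1 made up 91.3% to 98.1% of it, and without them the sum was 1.36 to 1.56 in VECs and 3.57 to 4.46 in LECs, the opposite order. The value of Snap25 comes from 1 probe, and its other probe stayed at background on all 6 arrays. Of the fibroblast markers, 3 of 4 tested were higher in LECs, with a summed level over the list of 8 genes of 0.92 to 1.58 in VECs and 2.21 to 2.98 in LECs, and Pdgfra, which defines these cells, was above background on VEC array 2 alone. Of the myeloid markers, 4 of 8 tested were higher and 3 lower, with summed levels of 79.2 to 84.9 in VECs and 69.3 to 74.5 in LECs. Itgam made up 92.5% to 94.4% of that sum, and without it the ranges overlapped, at 4.73 to 5.26 in VECs and 4.97 to 5.37 in LECs. Without Itgam and Csf1r the sum was 2.50 to 2.72 in VECs and 2.86 to 3.18 in LECs, the opposite order to the full list. The value of Itgam comes from 1 probe. Its other probe had signals of 20.0 to 29.5, close to the background, and did not pass (limma adjusted p = 0.092). Alongside the 5 genes higher in VECs, 3 of 3 tested erythroid markers were higher in VECs, with summed levels of 14.3 to 35.3 in VECs and 0.37 to 1.99 in LECs. Of the markers of smooth muscle and pericytes, 3 of 10 were higher in VECs (51.6 to 61.9 in VECs and 37.7 to 48.9 in LECs), as were 3 of 3 tested of T and B cells (4.68 to 5.94 and 3.61 to 4.34). Of the rest of that list, Cd3g, Cd8a and Ms4a1 stayed at background on all 6 arrays. Cd4 and Cd3e made up 96.2% to 97.5% of the summed level of T and B cells. Without them it was 0.15 to 0.18 in VECs and 0.10 to 0.13 in LECs. The other probe of Cd4 had signals of 16.6 to 24.1 and did not pass (limma adjusted p = 0.0597), while that of Cd3e passed (limma adjusted p = 0.0386). Of the epithelial markers, Fabp2 was higher in LECs, Krt19 and Vil1 were higher in VECs and 2 did not pass (1.25 to 1.92 and 1.06 to 1.20), and Krt20 stayed at background on all 6 arrays. The pan-endothelial markers were lower in LECs for 5 of 6 genes (252 to 286 and 153 to 172). The part of these cells in the differences of the ligands and receptors was not tested.

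All 6 arrays were on 1 slide, with VEC 2, 3 and 4 and LEC 6 in row 1 and LEC 7 and 8 in row 2. Within row 1, LECs are thus represented by LEC 6 by itself, and this comparison equals the fit with the row as a block. It gave -4.71 for Epha4, -0.998 for Epha2, 0.87 for Epha7, -0.58 for Efna1, -0.66 for Efna2, -0.61 for Efna3, -0.89 for Efna4 and 0.55 for Efna5. The spread in that fit comes from the VECs and from LEC 7 and 8, which do not enter these differences, so LEC 6 is assumed to vary as they do and the values are given without a call.

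**Figure D4:**
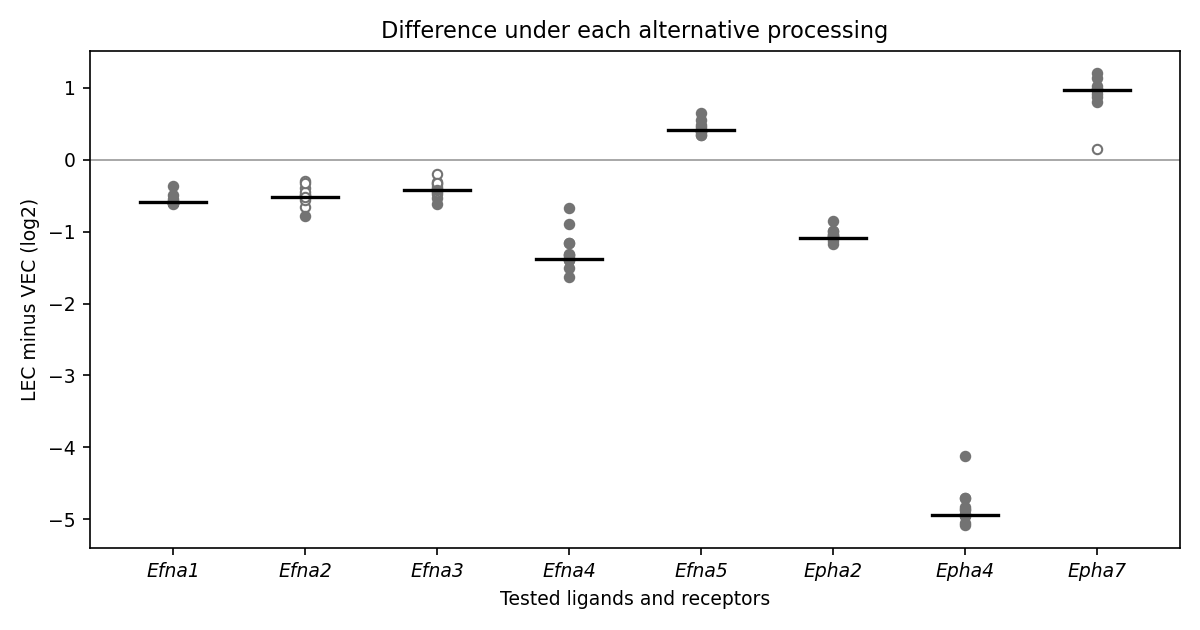
Difference between LECs and VECs (log2, LEC minus VEC) of the 8 tested genes under the main processing (black line) and under each alternative (gray points). Filled points passed at an adjusted p under 0.05, open points did not. No point crosses 0, and the widest shifts are those of Epha7, Efna4 and Epha4 with normexp background correction.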

How the data were processed

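The authors extracted RNA from the sorted cells, labeled it with Cy3 and read each array with Agilent Feature Extraction 12.0.3.1. The software subtracted background from the deposited intensity but did not scale the arrays to each other. In the deposited log2 table, 99.9% or more of the values on each array were the log2 intensity less a fixed amount (tolerance 0.01). Its medians were -3.19 to -3.13, genes were not centered, and it was used as an alternative.

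Spots marked as outliers (97 to 122 per array) were dropped, the remaining intensities were put on the log2 scale and averaged per probe, and each array was shifted by its own 75th percentile. Probes were compared with limma 3.58.1 under R 4.3.3 (linear model with moderated variances, two-sided, Benjamini-Hochberg adjustment over 33776 probes), which was tested on simulated data. Precision is limited by 3 arrays per group. RefSeq accessions, without versions, of GRCm38.p6 named 32994 of 56605 probes and were used for names. Where several probes of a gene were tested, the one of highest mean stood for the gene. Named were every member, the related Eph and ephrin genes, and up to 3 called genes per direction of each pathway list, and, of marker lists, the first 3 genes, except that some are not reported here. Genes outside this rule complete small counts or show probes that disagree, and were named after their values were seen. The members and lists were chosen with earlier results of these data known. A fold written as “at least” is a bound, used when any array of the dimmer group failed the test against background; it does not cover replicate spread. For the arrays, the study used Gene Spring GX and an ANOVA whose settings are not given in the sources used here. The alternatives were other background corrections, scalings, filters and tests, a floor, outlier spots kept, the deposited table, the slide row as a block, the mean of a gene's probes and each array left out.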

Additional observations from a re-analysis of the deposited data

How the results depend on the processing

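No paired analysis was possible because the groups share no replicate number. Of the 10 genes, 2 were higher in LECs and 5 lower, and leaving out 1 array gave 2 higher each time and 4 to 5 lower. The number higher was 1 with normexp background correction and 1 when probes had to be well above background on all 6 arrays, since Epha7 was then not called or not tested. Over all probes, leaving out 1 array gave 9308 to 10452 higher and 9534 to 10895 lower, against 10537 and 11066, and 6916 were lower without scaling between arrays. Of the pathway genes, 10 were higher and 11 lower, with 8 to 10 and 9 to 12 when 1 array was left out. The number lower was 7 without scaling. Of the 8 tested ligands and receptors, Efna1, Efna4, Efna5, Epha2 and Epha4 kept their direction under each alternative that tested them. Their calls held as well, leaving aside the fit with the slide row as a block. In that fit LEC 6 is the single LEC array behind the difference. The cause of the other changes was not tested. Signs turned for genes outside the 10, and those that follow are not a full list. Without scaling, the differences of Epha6, Ephb2, Ephb3 and Ephb6 were 0.11, 0.073, 0.0845 and 0.0332 and that of Ptpn1 was 0.0449. Epha6 was at 0.14 with the slide row as a block, Epha10 ranged from -0.71 to 0.0551 when 1 array was left out, the latter without VEC replicate 4, and Abl1 was at -0.42 with the mean of its probes. Probes near the lowest signal well above background, as for Epha7 and Efna4, limit what these arrays can show.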
